A study of Mus musculus with 8 samples.

Results

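The 12 h glucose starvation response was examined in mouse embryonic fibroblasts (MEFs) labelled as knockouts of Kdm3a, the gene of a histone H3K9 demethylase. It rests on 4 of the 8 libraries of the series, those whose titles name this genotype: 2 from fed cells (0 h) and 2 from cells kept for 12 h without glucose. MEFs are the connective tissue cells that grow when embryo tissue is put in culture, here of strain C57BL/6 and at passages 3 to 5. Fed cells were cultured in DMEM with 10% FBS, and starved cells were rinsed and moved to DMEM lacking glucose, with 10% dialyzed FBS in place of whole serum. Since no cells were kept fed for 12 h, loss of glucose cannot be told apart from the new medium, the dialyzed serum and the elapsed time, and "starvation" means all of them. How the Kdm3a allele was made is not given in the sources used here, nor is the age of the embryos. The other 4 libraries, 2 fed and 2 starved from wild-type (WT) MEFs under the same media, are used only to show where the responses of the genotypes differed. The labels do not say that replicates were separate cultures or embryos, so every p-value measures the spread between these libraries, which may be technical.

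As background, glucose is both a fuel for glycolysis and the source of the amino sugars from which the sugar chains of secreted proteins are built in the endoplasmic reticulum (ER). Shortage of amino acids or of correctly folded ER proteins activates kinases that phosphorylate the initiation factor eIF2alpha. Most translation then slows while the transcription factor ATF4 is made, and ATF4 induces amino acid transporters, amino acid synthesis and tRNA charging (the integrated stress response). The ER sensors ATF6 and IRE1, the latter through XBP1, induce ER chaperones and degradation factors (the unfolded protein response). In fibroblasts, starvation is further known for arrest of division and for autophagy, the delivery of cell contents to lysosomes.

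Levels are given in CPM, the counts of a gene per 1000000 counts of its library, scaled by TMM-adjusted library totals, in the order of replicates 1 and 2. Fold changes are log2 values of starved over fed ± SE, and "rose" and "fell" stand for an adjusted p under 0.05 in edgeR's quasi-likelihood test. Where levels or a fold change of a called gene are printed without an adjusted p, it was at most 1.74e-07, and a gene named without values is only known to be under the threshold. Differences from the WT response carry an adjusted p of at most 8.45e-06, and changes called in WT one of at most 0.000134. Total counts were 52443103 and 42697301 in the fed and 45792470 and 53602289 in the starved KO-labelled libraries, and 38407520 to 41775284 in the WT libraries. At this depth 3 counts correspond to 0.0486 and 0.0596 CPM in fed and 0.0665 and 0.0567 CPM in starved KO-labelled libraries.

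Kdm3a itself was read at 55.2 and 55.4 CPM in fed and 65.4 and 66.7 CPM in starved libraries. The fed level was close to that of fed WT cells (56.1 and 56.4 CPM), so these libraries are called KO-labelled throughout. Counts over whole transcripts cannot show the loss of an exon. Starvation changed Kdm3a by 0.26 ± 0.042 (adjusted p = 9.49e-06), or by 0.00 (adjusted p = 0.976) with scaling by library totals, against 1.68 ± 0.042 in WT (difference -1.43 ± 0.059). Of genes on the Y chromosome, 4 were read (Uty, Ddx3y, Kdm5d, Eif2s3y), and they held 0 to 2 counts in KO-labelled and 296 to 1251 counts in WT libraries, so genotype and sex of the cells cannot be told apart wherever the responses are compared.

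The fibroblast identity named by the labels was visible in all 4 libraries. The 14 fibroblast markers were all detected and summed to 11259 and 11252 CPM in fed and 13953 and 14072 CPM in starved libraries. The larger sum does not describe most members, since 9 of the 14 fell, 6 of them over 2-fold. Another 4 rose, among them the abundant Fn1, and the median change was -0.77. Of 17 macrophage and blood cell markers, 10 were at 0 counts in all 4 libraries, among them Ptprc (CD45), Emr1 (F4/80), C1qa, C1qb, C1qc, Cd3e and Tyrobp. The summed level of this list was 4.29 to 4.85 CPM in fed and 47.6 to 47.8 CPM in starved libraries. Of its 3 tested members 2 rose, and Lyz2, of lysozyme, was not called. Cd68, a lysosomal membrane protein gene used as a macrophage marker, stood at 3.63 and 3.36 CPM in fed and 40.9 and 40.7 CPM in starved libraries (3.54 ± 0.099). Csf1r, the receptor of a macrophage growth factor, stood at 0.438 and 0.398 CPM in fed and 6.03 and 6.42 CPM in starved libraries (3.88 ± 0.34, adjusted p = 8.9e-10). Summed endothelial markers lay between 6.00 and 7.20 CPM and epithelial markers between 4.49 and 4.68 CPM. Single members at these low levels moved in opposite directions beneath the sums. Of 5 tested endothelial markers 3 rose and 2 fell, and of 5 tested epithelial markers 1 rose and 1 fell. Cartilage and bone markers summed to 75.3 to 78.1 CPM fed and 59.5 to 59.7 CPM starved, neural markers to 39.7 to 40.6 and 53.1 to 54.1 CPM, adipocyte markers to 79.0 to 79.5 and 54.0 to 55.4 CPM, and skeletal muscle markers to 2.47 to 2.74 and 5.90 to 7.05 CPM. The muscle regulators Myod1, Myog, Myf5 and Pax7 and the adipocyte genes Adipoq, Lep and Plin1 were at 0 counts in all 4 libraries. The part of any other cell type in the results below was not tested. In bulk RNA, a change in the number of cells of one kind and a change in RNA per cell cannot be told apart.

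Across the transcriptome, starvation of KO-labelled cells raised genes of amino acid supply, ER protein folding and ribosome production and lowered genes of cell division, interferon defence and collagen. Changes were called for 11490 (79.7%) of the 14418 genes: rises for 5678 (39.4%) and falls for 5812 (40.3%). Past 2-fold were 1897 rises (13.2%) and 2888 falls (20.0%). Counts of list members below are set beside these shares. The median of all genes was -0.02, the middle 50% lay between -0.83 and 0.61, and the middle 90% between -2.63 and 1.86. Scaled by library totals, the median moved to -0.27 and 4261 genes rose and 7242 fell, so the share of calls that were rises went from 49.4% to 37%. Changes of this small size are therefore relative to the scaling. Replicates lay close together: over 6849 genes with a mean of at least 25 CPM, 99.8% of fed and 99.5% of starved replicate pairs agreed within 1.2-fold.

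**Figure D1:**
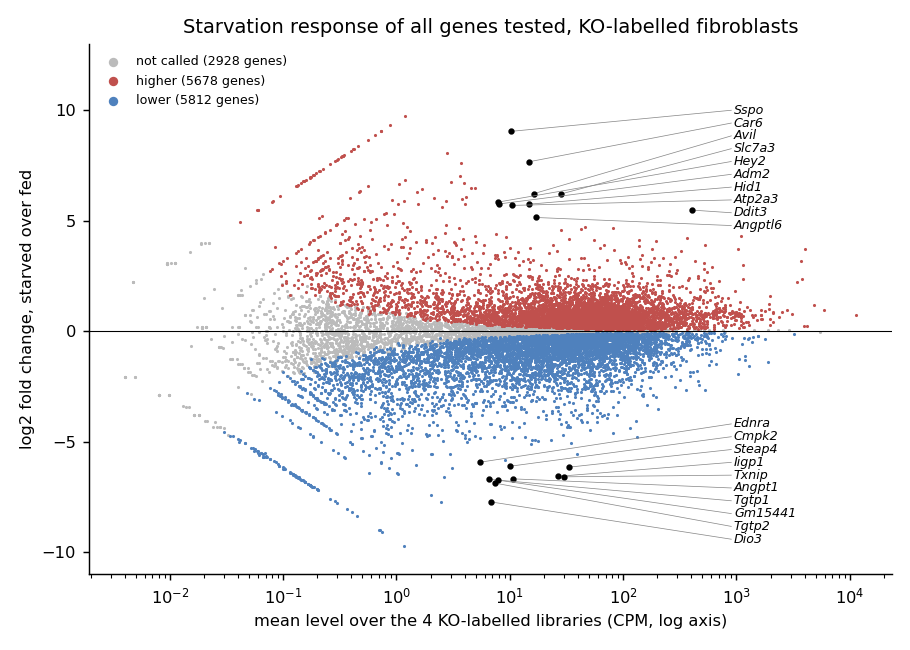
Log2 fold change of starved over fed (vertical axis) against the mean level over the 4 KO-labelled libraries in CPM (horizontal log axis). Each point is 1 of the genes tested, coloured by call, with 49 genes at 0 counts in these libraries not drawn. Marked in black are the 10 largest rises and falls among called genes with a mean of at least 5 CPM and groups that did not overlap. Sspo is highest and Dio3 lowest.

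The 10 largest rises included secreted factors and transporters that were close to silent when fed. Slc7a3, a carrier of arginine and lysine, had 0.778 and 0.716 CPM in fed and 56.1 and 55.2 CPM in starved libraries (6.21 ± 0.11). Car6, a secreted carbonic anhydrase, went from 0.162 and 0.119 to 27.95 and 31.3 CPM (7.67 ± 0.19), and Avil, the actin-binding protein advillin, from 0.600 and 0.219 to 31.4 and 32.9 CPM (6.22 ± 0.18). Only called genes whose fed and starved libraries did not overlap could enter these 10. Adm2, a peptide hormone of the calcitonin family, reached 15.9 and 15.3 CPM from 0.227 and 0.358 CPM, and Hey2, a Notch-responsive repressor, reached 15.2 and 15.9 CPM from 0.194 and 0.358 CPM. Atp2a3, a calcium pump of the ER membrane, went from 0.421 and 0.358 to 20.2 and 20.6 CPM. Hid1, of Golgi and secretory granule traffic, went from 0.421 and 0.676 to 30.1 and 27.9 CPM, and Angptl6, an angiopoietin-like secreted protein, from 0.907 and 0.954 to 34.3 and 31.7 CPM. Sspo, the secreted giant protein SCO-spondin, had 4 counts over the 2 fed and 1986 over the 2 starved libraries, a ratio of 567 (95% Clopper-Pearson interval 221 to 2080, counting error only). The only one of the 10 rises that was well expressed when fed was Ddit3, the stress transcription factor CHOP, at 17.3 and 17.99 CPM in fed and 791 and 784 CPM in starved libraries (5.48 ± 0.037, adjusted p = 9.37e-28).

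Among the 10 largest falls were a thyroid hormone enzyme, vascular factors, a glucose-responsive gene and interferon-inducible genes. Dio3, which inactivates thyroid hormone, had 1517 counts in fed and 6 in starved libraries, a ratio of 221 (95% interval 101 to 604). Angpt1, a ligand of the endothelial receptor TIE2, went from 22.4 and 20.2 to 0.177 and 0.227 CPM (-6.69 ± 0.18) and Ednra, an endothelin receptor, from 10.95 and 10.6 to 0.244 and 0.113 CPM (-5.93 ± 0.27). Txnip, the arrestin-like inhibitor of glucose uptake, was read at 58.7 and 60.4 CPM in fed and 0.754 and 0.491 CPM in starved libraries (-6.60 ± 0.14). Gm15441, an RNA transcribed antisense to Txnip, moved with it, from 15.5 and 15.8 to 0.177 and 0.113 CPM. Whether the counting used strand is not given in the sources used here, so reads of these 2 genes cannot be told apart. Steap4, a metalloreductase, dropped from 64.6 and 66.96 to 0.931 and 0.907 CPM (-6.16 ± 0.13). The interferon-inducible GTPase gene Iigp1 dropped from 53.2 and 52.2 to 0.421 and 0.661 CPM (-6.57 ± 0.13) and Cmpk2, a mitochondrial nucleotide kinase also induced by interferon, from 18.7 and 21.3 to 0.266 and 0.302 CPM (-6.11 ± 0.2). Tgtp1 and Tgtp2, near-identical interferon-inducible GTPases, went from 13.5 and 12.7 to 0.177 and 0.0756 CPM and from 14.9 and 14.7 to 0.222 and 0.0378 CPM, values that are uncertain because reads may be split between the copies.

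**Figure D2:**
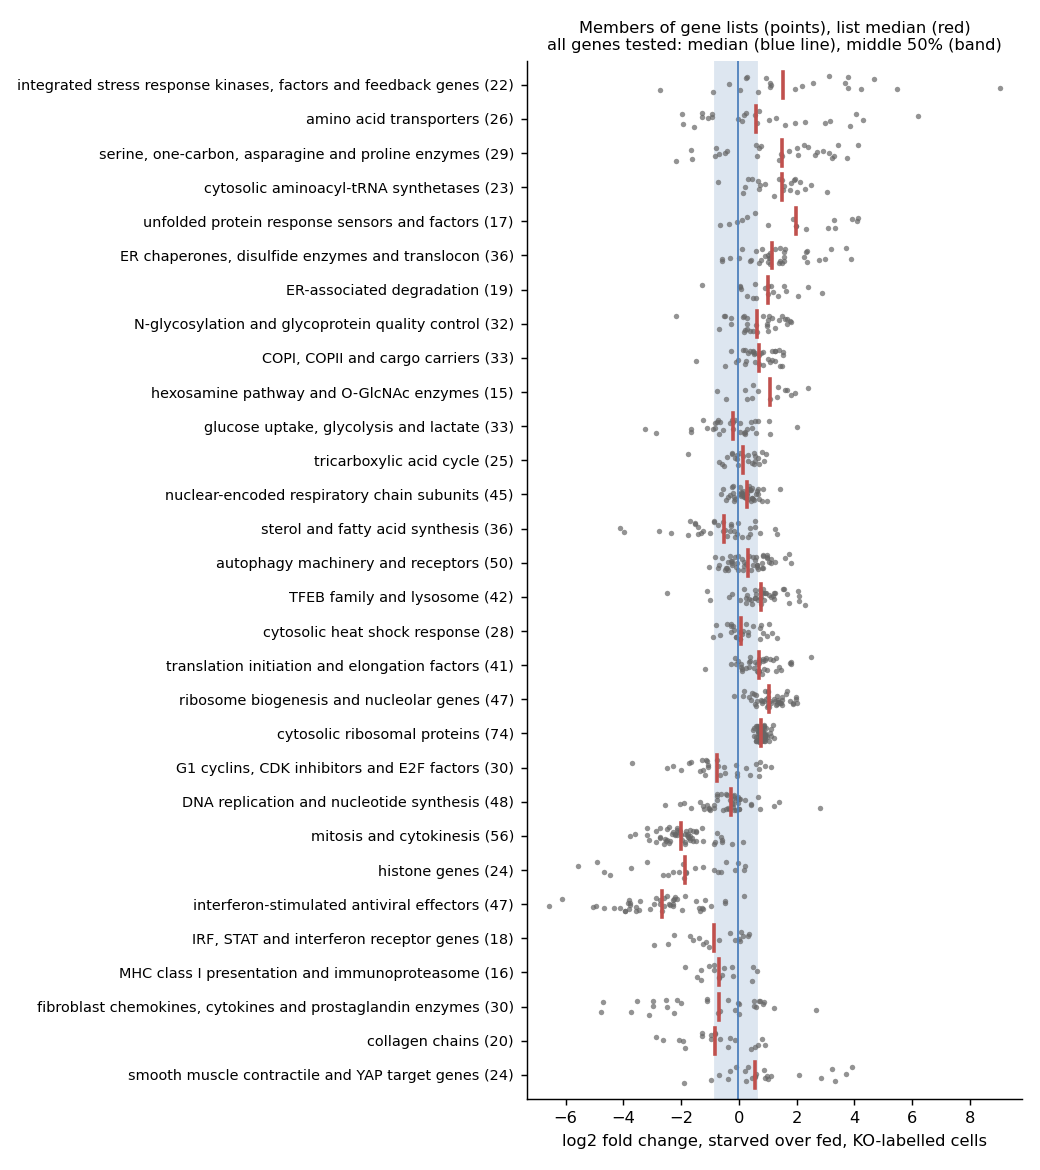
Log2 fold change of starved over fed in KO-labelled cells (horizontal axis) for the tested members of 30 gene lists, 1 point per gene, with the number of members in brackets. Red bars are list medians, the blue line and band are the median and middle 50% of all genes tested. Stress, ER and ribosome biogenesis lists have medians right of the band, and mitosis, histone and interferon lists left of it.

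Genes of the integrated stress response rose together. Of its kinases, factors and feedback genes, 18 of 22 rose and another 2 fell, against 39.4% and 40.3% of all genes, and the median change was 1.53. Atf4, the central transcription factor, stood at 149.7 and 149.6 CPM in fed and 568 and 578 CPM in starved libraries (1.94 ± 0.028). Downstream factors rose further: Ddit3 as above, Atf3 from 21.7 and 21.2 to 179 and 191 CPM (3.11 ± 0.048) and Trib3, a pseudokinase that restrains ATF4, from 12.7 and 11.1 to 158 and 148 CPM (3.68 ± 0.057). Ppp1r15a, the GADD34 subunit that directs dephosphorylation of eIF2alpha, was at 37.5 and 37.6 CPM when fed and 694 and 704 CPM when starved (4.22 ± 0.037). Chac1, an enzyme that degrades glutathione, went from 8.60 and 8.37 to 117 and 114 CPM (3.77 ± 0.05) and Gadd45a, which slows the cell cycle under stress, from 6.32 and 6.08 to 159 and 157 CPM (4.67 ± 0.051). The secreted stress hormone genes also rose. Stc2, stanniocalcin 2, went from 1.56 and 1.13 to 19.9 and 17.7 CPM and Gdf15 from 2.58 and 2.56 to 16.6 and 13.7 CPM, while Fgf21 had 0 counts in fed and 143 in starved libraries, at least 27.2-fold higher with a floor of 3 counts per library. The sensor kinase of the ER arm, Eif2ak3 (PERK), rose by 1.12 ± 0.055. Against this direction, Eif2ak2 (PKR), the kinase that senses double-stranded RNA and is itself induced by interferon, fell from 159 and 164 to 24.01 and 24.2 CPM (-2.74 ± 0.046), and Ddit4 (REDD1), an inhibitor of mTORC1, fell by 0.89. Cebpb, a partner of ATF4, had starved replicates that lay apart, at 136 and 128 CPM fed and 126 and 82.2 CPM starved (-0.35 ± 0.22, adjusted p = 0.154). Without starved KO-labelled replicate 1 it was called lower (-0.68, adjusted p = 0.0288). It and Ppp1r15b, the constitutive partner of Ppp1r15a, were the members without a call.

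Amino acid carriers split into a strongly rising and a falling set: 15 of 26 rose and another 8 fell, 11 and 6 of them past 2-fold, with a median of 0.59. Slc3a2, the heavy chain that brings several carriers to the cell surface, went from 108 and 104 to 2114 and 2092 CPM (4.31 ± 0.031), and its partner Slc7a5, which imports large neutral amino acids, from 86.1 and 89.5 to 779.9 and 783 CPM (3.15 ± 0.031). Slc7a1, another arginine carrier, rose to 367 and 372 from 46.1 and 48.1 CPM, and Slc6a9, a glycine carrier, to 261 and 252 from 17.9 and 17.3 CPM. Slc7a8 rose from 0.519 and 0.636 to 9.91 and 9.20 CPM. Carriers that fell included members known as ATF4 targets. Slc38a2, the sodium-coupled carrier of glutamine and alanine, fell from 407 and 392 to 189.7 and 189 CPM (-1.08 ± 0.031), and Slc7a11, the cystine-glutamate exchanger, from 52.1 and 52.1 to 22.6 and 20.1 CPM (-1.29 ± 0.066). In WT cells Slc38a2 rose (0.69 ± 0.031), a difference between the responses of -1.77 ± 0.044.

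Enzymes that make serine, glycine, asparagine and proline rose as a rule: 21 of 29 rose and another 8 fell, 17 of the rises over 2-fold, with a median of 1.49. In the serine branch Phgdh went from 220.5 and 213 to 868 and 869 CPM, Psat1 from 229.9 and 225 to 592 and 602 CPM and Psph from 18.9 and 17.7 to 174 and 169 CPM, with log2 changes of 2.00, 1.39 and 3.23. The mitochondrial one-carbon enzymes followed, Shmt2 from 122 and 118 to 643 and 631 CPM, Mthfd2 from 35.1 and 37.04 to 314 and 316 CPM and Aldh1l2 from 25.6 and 24.9 to 339 and 334 CPM. Asns, asparagine synthetase, was read at 80.1 and 81.9 CPM in fed and 499 and 512 CPM in starved libraries (2.64 ± 0.032). Got1, the cytosolic aspartate aminotransferase, went from 24.9 and 24.6 to 269 and 270.4 CPM (3.45 ± 0.039), Cth, which makes cysteine from cystathionine, from 5.67 and 6.24 to 103 and 104 CPM (4.13 ± 0.073) and Bcat1, a branched-chain aminotransferase, from 8.49 and 8.11 to 82.7 and 80.9 CPM (3.30 ± 0.05). Proline synthesis rose at both steps named, Aldh18a1 from 66.99 and 68.2 to 443 and 446 CPM and Pycr1 from 5.75 and 6.22 to 30.1 and 27.6 CPM. Pycr1 fell in WT cells (-0.44 ± 0.089), and the responses differed by 2.70 ± 0.13.

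Nearly every cytosolic aminoacyl-tRNA synthetase gene, which loads an amino acid onto its tRNA, rose: 22 of 23 rose and another 1 fell, with a median of 1.49. The fall was in Dars, the aspartate enzyme. Wars, for tryptophan, went from 56.4 and 55.9 to 473 and 459.6 CPM (3.05 ± 0.036), Sars, for serine, from 138 and 139 to 784 and 777 CPM (2.49 ± 0.029), Nars, for asparagine, from 174 and 173 to 859.8 and 852 CPM (2.30 ± 0.027) and Cars, for cysteine, from 70.4 and 65.6 to 292 and 297 CPM (2.11 ± 0.04). The mitochondrial synthetases were mixed, since 9 of 17 rose and another 5 fell (median 0.39). Lars2, the leucine enzyme, rose from 229.9 and 251 to 1199 and 1137 CPM, whereas Hars2, Iars2, Sars2 and Vars2 were among those that fell.

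**Figure D3:**
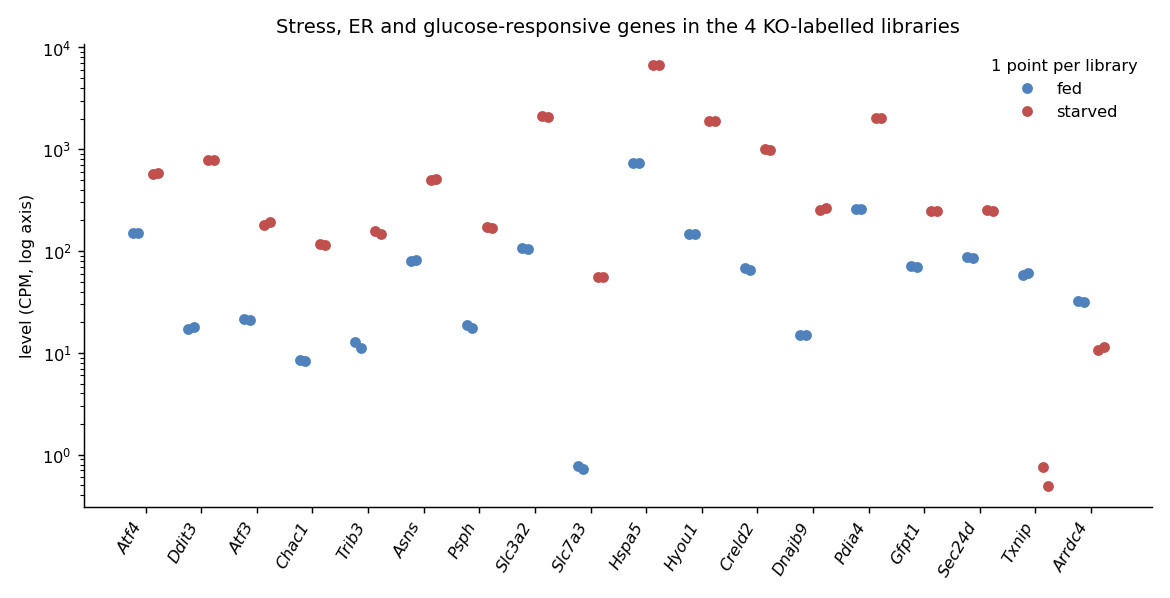
Levels in CPM (vertical log axis) of 18 stress, ER and glucose-responsive genes in the 4 KO-labelled libraries, 1 point per library, fed in blue and starved in red. All points of a gene's starved libraries lie above its fed ones except for Txnip and Arrdc4, where they lie below.

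The upstream sequences of 3 genes of this response are shown because each holds a match to the C/EBP-ATF response element, the composite site that ATF4 is known to bind. RefSeq sequence of build GRCm38.p6 was used, since the deposited table carries no coordinates, and runs 5′ to 3′ on the strand of the gene. Capitals mark the match to TGATGNAA on either strand. The stretch for Asns is chr6:7693210-7693257 (minus strand), for Chac1 chr2:119351024-119351081 (plus strand) and for Got1 chr19:43524675-43524732 (minus strand).

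Asns: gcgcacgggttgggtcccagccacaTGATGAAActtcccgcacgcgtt

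Chac1: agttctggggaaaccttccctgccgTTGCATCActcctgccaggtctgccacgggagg

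Got1: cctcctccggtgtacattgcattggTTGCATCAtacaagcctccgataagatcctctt

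The match ended 16 bases before the start site in Asns, 186 in Chac1 and 95 in Got1. Within 250 bases upstream, the motif was found in 5 of 21 matched stress response genes (23.8%: Atf3, Chac1, Fgf21, Nupr1 and Vldlr) and in 3 of 22 amino acid synthesis genes (13.6%: Asns, Got1 and Pycr1). It was also found in 2 of 20 matched amino acid transporter genes (10%), Slc7a7 (-0.92, adjusted p = 0.0255) and Slc7a11 (-1.29), both of which fell. Among 11254 tested genes with a promoter it was found in 2.47%, and among all 32851 promoters of the table in 3.45%. Of the 278 tested genes that hold it, 119 rose and 107 fell, against 39.4% and 40.3% of all genes, with a median change of 0.13. A match is a description of letters and not evidence of binding.

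Genes of the unfolded protein response and of ER folding formed the second rising block. Of sensors and factors, 13 of 17 rose and another 2 fell, 11 of the rises over 2-fold, with a median of 1.98. The 2 that fell were Mbtps1, a protease that activates ATF6, and Creb3l1, a related factor. The sensor Atf6 went from 71.9 and 71.3 to 348 and 362 CPM (2.31 ± 0.035), the sensor Ern1 (IRE1) from 30.6 and 29.9 to 59.6 and 62.7 CPM (1.02 ± 0.06) and the factor Xbp1 from 42.6 and 39.5 to 163 and 165 CPM (1.99 ± 0.045). Their known targets moved further. Dnajb9, an ER co-chaperone that restrains IRE1, was at 15.1 and 14.9 CPM in fed and 256 and 263 CPM in starved libraries (4.11 ± 0.048). Sdf2l1, part of an ER chaperone complex, went from 21.5 and 21.5 to 377 and 360.0 CPM (4.10 ± 0.042), Creld2, a secreted ER stress protein, from 67.4 and 64.7 to 997 and 994 CPM (3.91 ± 0.033) and Manf, a secreted neurotrophic ER protein, from 110.0 and 108 to 926 and 914 CPM (3.08 ± 0.039). Wfs1, an ER membrane protein mutated in Wolfram syndrome, rose from 19.02 and 20.4 to 205 and 195 CPM and Herpud1, an ER degradation factor, from 25.99 and 26.1 to 255 and 252 CPM. Several of these genes were named for the size of their change, so separate fed and starved values follow from that choice.

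Of 36 ER chaperones, disulfide enzymes and translocon genes, 32 rose and 3 fell, 23 of the rises over 2-fold, with a median of 1.16. Hspa5, the chaperone BiP, reached 6693 and 6719 CPM from 733 and 733 CPM (3.19 ± 0.023, adjusted p = 9.37e-28) and Hsp90b1 (GRP94) 6237 and 6345 from 1232 and 1231 CPM (2.35 ± 0.023). The lectin chaperones rose as well, Calr from 1195 and 1209 to 5723 and 5669.9 CPM and Canx from 434 and 442 to 1244 and 1241 CPM. Hyou1, a nucleotide exchange factor for BiP, went from 146 and 146 to 1907 and 1901 CPM (3.71 ± 0.03), and the disulfide isomerases Pdia4 from 257 and 258 to 2022 and 2027 CPM (2.97 ± 0.026) and Pdia6 from 378 and 374 to 1917 and 1906 CPM (2.35 ± 0.025). The ER oxidases also rose, Ero1l from 76.3 and 76.4 to 521 and 523 CPM and Ero1lb from 8.78 and 8.39 to 128 and 125 CPM. Sec61a1, the channel of the translocon, went from 216 and 209 to 633 and 625 CPM (1.57 ± 0.029) and Ssr1, an accessory subunit beside it, from 178 and 174 to 362 and 344 CPM (1.004 ± 0.032). Fkbp10, a collagen-folding isomerase, fell (-0.58 ± 0.032), with its relatives Fkbp7 and Fkbp14 the only falls of this list. Of the ER-associated degradation genes, 15 of 19 rose and another 1 fell (Erlin2, median 0.99), with Sel1l, of the retrotranslocation complex, from 148 and 144 to 1069 and 1085 CPM, its ligase Syvn1 from 67.7 and 67.3 to 208 and 205 CPM and Derl1 from 130.1 and 128 to 535 and 533 CPM.

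The upstream sequences of Hspa5, Creld2 and Pdia6 are shown because each holds the ER stress response element, the site bound by NF-Y with ATF6 or XBP1. Searched as CCAAT, 9 bases, CCACG on either strand, it is marked in capitals. The 250 bases before the start site are given for Hspa5 (chr2:34771840-34772089, plus strand), and the match with 25 bases on each side for Creld2 (chr15:88819495-88819563, plus strand) and Pdia6 (chr12:17266466-17266534, plus strand), from RefSeq build GRCm38.p6.

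Hspa5: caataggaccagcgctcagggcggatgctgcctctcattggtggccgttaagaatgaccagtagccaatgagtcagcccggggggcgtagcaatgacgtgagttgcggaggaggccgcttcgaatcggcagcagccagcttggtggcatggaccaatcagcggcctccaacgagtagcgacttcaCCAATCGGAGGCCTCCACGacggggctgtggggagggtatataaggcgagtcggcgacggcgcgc

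Creld2: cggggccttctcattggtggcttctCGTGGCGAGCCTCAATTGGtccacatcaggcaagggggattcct

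Pdia6: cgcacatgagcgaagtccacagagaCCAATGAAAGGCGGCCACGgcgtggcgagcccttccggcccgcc

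The match ended 47 bases before the start site in Hspa5, 108 in Creld2 and 80 in Pdia6. The element is rare: 17 of 11254 tested genes with a promoter held it (0.151%), and 37 of all 32851 promoters (0.113%). It was found in 6 of 30 matched ER folding genes (20%), namely Hspa5, Hsp90b1, Calr, Canx, Pdia6 and Ero1lb, and in 2 of 14 unfolded protein response genes (Creld2 and Dnajc3). Of the 17 tested genes that hold it, 11 rose, each by more than 2-fold, and 6 fell, 3 of them by more than 2-fold. Of all genes tested, 13.2% rose and 20.0% fell by more than 2-fold. The 11 were the 8 just named, the ligase gene Syvn1, the mannosyltransferase gene Alg12 and the zinc finger gene Zfp57. Those that fell were Pan2, Hnrnpa3, Tdrd9 (adjusted p = 0.00853), Acacb (adjusted p = 1.37e-06), Gpr44 (adjusted p = 0.0459) and Adcy3 (adjusted p = 0.00578). The members of both lists are known ER stress genes, some of which defined the element, so the share is a description of the lists.

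N-glycosylation and traffic out of the ER rose more modestly and broadly. Among N-glycosylation and glycoprotein quality control genes 26 of 32 rose and another 6 fell, with a median of 0.62 (0.36 with library totals). Ostc, a subunit of the oligosaccharyltransferase, went from 47.7 and 49.9 to 169 and 169 CPM (1.79 ± 0.04), Rpn1, another subunit, from 235 and 240.0 to 815 and 818 CPM (1.78 ± 0.028) and Alg2, a mannosyltransferase of the lipid-linked precursor, from 23.7 and 23.5 to 74.2 and 77.1 CPM (1.68 ± 0.051). Alg14, of an earlier step of that precursor, fell from 28.8 and 29.02 to 6.01 and 6.63 CPM (-2.19 ± 0.11). Among COPI, COPII and cargo carrier genes 28 of 33 rose and another 4 fell, with a median of 0.70. The falls were in Sec24b, Sec24c, Kdelr1 and Trappc1. Sec24d, a cargo-selecting COPII subunit, went from 86.7 and 85.03 to 252 and 248 CPM (1.54 ± 0.036), Surf4, a cargo receptor, from 314 and 317 to 841 and 849 CPM (1.42 ± 0.027) and Mcfd2, a cofactor of the receptor for clotting factors, from 77.7 and 80.3 to 219 and 224 CPM (1.49 ± 0.036).

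In these ER lists the difference between responses was more often higher than lower in KO-labelled cells, to different degrees. It was called higher for 34.1% and lower for 30.4% of all genes tested, with a median of 0.10. Here and for the lists below, differences between responses were not recomputed with library totals. For ER folding genes the difference was higher in 30 of 36 and lower in 3 (median 0.60), for N-glycosylation genes in 25 and 6 of 32 (median 0.59) and for COPI and COPII genes in 25 and 2 of 33 (median 0.69). For sensors and factors of the unfolded protein response it was higher in 9 and lower in 3 of 17 (median 0.27), and for ER-associated degradation in 11 and 4 of 19 (median 0.395). Sec61a1 rose by 0.20 ± 0.029 in WT, so that its responses differed by 1.37 ± 0.041. Ssr1 fell in WT, from 325 and 330.5 to 215 and 215 CPM (difference 1.61 ± 0.045), and Sec24d was not called there, from 147 and 143 to 141 and 134 CPM (difference 1.62 ± 0.051). Ostc differed by 1.64 ± 0.057, Pdia4 by 1.27 ± 0.035, Pdia6 by 1.17 ± 0.035, Creld2 by 1.17 ± 0.046 and Surf4 by 1.13 ± 0.037. The 4 groups share no library, but the 2 responses come from cells that also differ in sex.

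Genes that use or sense glucose did not move as one. In the hexosamine pathway, which makes the amino sugar precursors, 13 of 15 rose and another 2 fell (median 1.07). Gfpt1, the rate-limiting aminotransferase, went from 72.1 and 69.9 to 246 and 249 CPM (1.80 ± 0.037), Gnpnat1, the acetyltransferase, from 21.2 and 21.6 to 85.7 and 80.9 CPM (1.96 ± 0.051), Pgm3, the mutase, from 18.2 and 19.3 to 41.8 and 36.9 CPM (1.07 ± 0.068) and Uap1, which makes UDP-GlcNAc, from 70.98 and 74.4 to 116 and 114 CPM (0.66 ± 0.044). Enzymes of the reverse, salvage direction rose too, Gnpda1 from 18.2 and 17.6 to 94.2 and 91.8 CPM and Amdhd2 from 19.4 and 18.7 to 61.3 and 58.9 CPM. Gfpt2, the second aminotransferase gene, was lower, from 15.3 and 17.9 to 12.3 and 12.1 CPM (-0.44 ± 0.11, adjusted p = 0.00122, a call lost without fed KO-labelled replicate 2, adjusted p = 0.0539), and so was Ogt, which attaches O-GlcNAc to proteins (-0.77 ± 0.043). Gfpt1 rose by 0.47 ± 0.036 in WT, a difference of 1.33 ± 0.051.

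Of the glucose-sensing and arrestin-related genes 5 of 12 rose and another 4 fell. Beside Txnip, Arrdc4, a relative that is likewise a target of the glucose-sensing factors MondoA and ChREBP, fell from 32.7 and 31.9 to 10.8 and 11.5 CPM (-1.53 ± 0.099), and Arrdc3 from 46.3 and 48.2 to 20.3 and 19.5 CPM (-1.25 ± 0.063). Pdk4, a pyruvate dehydrogenase kinase, was the other fall. Mlx, the partner of both factors, rose from 25.1 and 25.4 to 41.9 and 42.01 CPM (0.73 ± 0.056), as did Mlxip (MondoA), G6pc3, Klf10 and Bhlhe41. In WT Arrdc4 was low throughout and went the other way, from 0.811 and 0.574 to 1.84 and 2.73 CPM (difference -3.25 ± 0.26).

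In glycolysis 17 of 33 fell and another 12 rose, against 40.3% and 39.4% of all genes. The median of -0.20 lay within the middle 50% of all genes. Slc2a1 (GLUT1), a glucose carrier, rose from 149 and 148 to 223 and 221 CPM (0.58 ± 0.033) and Hk2, hexokinase 2, from 53.2 and 52.6 to 112 and 109.8 CPM (1.07 ± 0.04). Eno2, an enolase, rose from 11.7 and 10.4 to 44.7 and 44.9 CPM (2.01 ± 0.07). Pfkm, phosphofructokinase, fell from 78.9 and 78.7 to 34.6 and 32.4 CPM (-1.23 ± 0.046) and Pfkfb3, which makes its activator, from 28.8 and 28.2 to 9.22 and 8.69 CPM (-1.67 ± 0.083). Ldha, lactate dehydrogenase A, fell from 1616 and 1625 to 752 and 745 CPM (-1.11 ± 0.024) and the lactate exporter Slc16a3 from 102 and 97.2 to 14.03 and 13.3 CPM (-2.87 ± 0.069). Pdk1, a kinase that keeps pyruvate out of the mitochondrion, fell from 69.1 and 69.02 to 20.9 and 22.9 CPM (-1.66 ± 0.064). Ldha was not called in WT (0.01 ± 0.025, adjusted p = 0.656), and the difference was -1.13 ± 0.035. Pfkfb3 differed by -2.26 ± 0.11.

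Mitochondrial lists moved to different degrees. For the tricarboxylic acid cycle 13 of 25 rose and another 8 fell, with a median of 0.15 that was -0.11 with library totals, Mdh1 rising from 147 and 150.2 to 279.8 and 289 CPM and Idh1 falling from 59.4 and 56.4 to 17.8 and 16.4 CPM. For respiratory chain subunits 28 of 45 rose and another 11 fell (median 0.27, and 0.01 with library totals), with Uqcrq at 62.1 and 62.96 CPM in fed and 169 and 169 CPM in starved libraries. Mitochondrial ribosomal protein genes rose in 37 of 49 cases and fell in 4, Mrpl11, Mrpl18, Mrpl34 and Mrps25 (median 0.47). Mitochondrial chaperones and proteases rose in 20 of 24 cases and fell in 3, Clpx, Spg7 and Oma1 (median 0.90), for example Hspa9 (mortalin) from 387 and 398 to 1083 and 1113 CPM, the protease Lonp1 from 103 and 104 to 346 and 331 CPM and Clpp from 24.9 and 23.7 to 72.6 and 64.5 CPM. Fatty acid oxidation was mixed and near the shares of all genes: 10 of 25 fell and another 9 rose, against 40.3% and 39.4%. Acadm, the medium-chain dehydrogenase, dropped from 43.5 and 45.9 to 10.8 and 10.8 CPM (-2.04 ± 0.061). The peroxisomal thiolase Acaa1a rose from 44.1 and 42.5 to 81.1 and 74.5 CPM (0.84 ± 0.052).

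Sterol and fatty acid synthesis genes mostly fell: 25 of 36 fell and another 8 rose, against 40.3% and 39.4% of all genes. The median of -0.50 lay within the middle 50% of all genes. Elovl6, a fatty acid elongase, went from 50.2 and 51.4 to 2.93 and 3.51 CPM (-3.97 ± 0.085) and Idi1, an isoprenoid isomerase, from 99.1 and 97.9 to 14.3 and 14.9 CPM (-2.75 ± 0.055). Where genes are named by the size of their change, separate fed and starved values follow from that choice.

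Nutrient sensors and the autophagy pathway changed unevenly. In the AMPK list 6 of 13 rose and another 6 fell, against 39.4% and 40.3% of all genes. Camkk2, an upstream kinase, dropped from 43.8 and 47.7 to 11.5 and 12.1 CPM. In the list of sestrins, REDD proteins and mTORC1 control 11 of 24 rose and another 9 fell, with a median of 0.17 that was -0.09 with library totals. Sesn2, an ATF4 target that restrains mTORC1, rose from 34.8 and 31.6 to 71.8 and 69.7 CPM (1.09 ± 0.054) but its relative Sesn1 fell from 23.9 and 23.6 to 5.76 and 4.63 CPM (-2.20 ± 0.086). Rragd, a Rag GTPase of lysosomal mTORC1, rose from 0.421 and 0.537 to 9.58 and 9.20 CPM (4.30 ± 0.24), and Flcn, folliculin, its activator, from 35.03 and 32.9 to 260.1 and 264 CPM (2.95 ± 0.038). Eif4ebp1, a translation repressor controlled by mTORC1, went from 62.2 and 58.3 to 339 and 339 CPM (2.49 ± 0.036).

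Among autophagy machinery and receptors 30 of 50 rose and another 16 fell, with a median of 0.31 and of 0.05 with library totals, where 23 rose and 21 fell. Past 2-fold were 7 rises and 1 fall of 50, against 13.2% and 20.0% of all genes. Atg13, of the initiating complex, went from 48.1 and 52.5 to 181 and 168 CPM (1.79 ± 0.049), Atg14, of the lipid kinase complex, from 15.3 and 14.8 to 44.9 and 46.3 CPM (1.60 ± 0.053), and Fam134b, the ER-phagy receptor, from 15.1 and 15.6 to 51.8 and 50.4 CPM (1.74 ± 0.051). Tmem41b, an ER scramblase needed for autophagosome growth, rose from 41.8 and 45.4 to 104 and 101 CPM (1.24 ± 0.049). Sqstm1 (p62), a cargo receptor, rose from 453 and 459.8 to 947 and 944 CPM (1.05 ± 0.025), and Ulk1, the initiating kinase, fell by 0.25 ± 0.047 (adjusted p = 5.23e-05). Map1lc3b (LC3B) was at 132 and 129 CPM in fed and 141 and 141 CPM in starved libraries (0.11 ± 0.032, adjusted p = 0.00449), which DESeq2 did not call, which was lost without either starved WT library (0.05, adjusted p = 0.108) and which turned to -0.15 with library totals. The rise was smaller than in WT for Atg14 (difference -1.53 ± 0.077), Fam134b (-1.45 ± 0.074) and Sqstm1 (-1.13 ± 0.035), and larger for Tmem41b (1.17 ± 0.077). Over the list the difference was lower in 28 and higher in 11 of 50 (median -0.23), against 30.4% and 34.1% of all genes.

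Lysosomal genes rose in 36 of 42 and fell in 5, with a median of 0.75 (0.50 with library totals). The proton pump subunits Atp6v1b2 and Atp6v1c1 went from 68.2 and 66.7 to 329 and 337 CPM and from 60.5 and 62.6 to 251 and 260.0 CPM. Neu1, a sialidase, went from 31.5 and 30.8 to 133 and 134 CPM (2.10 ± 0.043), Mcoln1, a calcium channel of the lysosome, from 25.2 and 26.5 to 107 and 109 CPM (2.06 ± 0.045) and Lamp1, a membrane glycoprotein, from 697 and 706 to 1257 and 1236 CPM (0.83 ± 0.028). Tfeb, the transcription factor known to drive such genes, fell from 14.3 and 14.97 to 2.33 and 2.82 CPM (-2.50 ± 0.12), as did its relative Mitf and the hydrolases Glb1, Gusb and Sgsh. The Lamp1 rise was smaller than in WT (difference -0.82 ± 0.039). The CLEAR core TCACGTGA lay upstream of 5 of 34 matched lysosomal genes (14.7%), against 1.67% of tested genes and 0.785% of all promoters. This share is a description of the list.

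Protein quality control in the cytosol did not follow the ER. In the heat shock list 14 of 28 rose and another 11 fell, with a median of 0.09 that was -0.17 with library totals, whereas 24 of 28 rose and 3 fell in WT (median 0.83), where 36.7% of all genes rose and 44.8% fell. The difference was lower in 24 of 28 and higher in 4, against 30.4% and 34.1% of all genes. Hspa8 (HSC70), at 2828 and 2858 CPM in fed and 2899.6 and 2946 CPM in starved libraries, changed by 0.04 ± 0.021 (adjusted p = 0.0797, and -0.22 with library totals) and went from 3685 and 3716 to 11085 and 11164 CPM in WT, a difference of -1.55 ± 0.029. Hsph1, an exchange factor for it, fell from 194 and 194 to 123 and 123 CPM but rose in WT (difference -1.90 ± 0.045). Dnaja1, a co-chaperone, fell from 206 and 209.9 to 111 and 111 CPM. Hspa1a and Hspa1b, near-identical inducible copies whose reads may be split, rose by 1.33 and 1.15. Constitutive proteasome subunits were mixed: 18 of 31 rose and another 7 fell, with a median of 0.18 that was -0.07 with library totals. In the NRF2 and glutathione list 20 of 31 rose and another 10 fell, led by Hmox1, heme oxygenase, at 145 and 149 CPM in fed and 775 and 776 CPM in starved libraries (2.40 ± 0.032), a smaller rise than in WT (difference -1.94 ± 0.045). Txnrd1, thioredoxin reductase, went from 316 and 319 to 789 and 786 CPM and Gstm1, a glutathione transferase, fell from 78.03 and 77.8 to 24.9 and 21.9 CPM.

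The apparatus of protein synthesis rose as a block of moderate changes. Of ribosome biogenesis and nucleolar genes 46 of 47 rose and another 1 fell, 28 of the rises over 2-fold, with a median of 1.03. The fall was in Bysl. Rrp12 went from 20.97 and 21.7 to 86.8 and 87.02 CPM, Gnl3 (nucleostemin) from 36.1 and 36.2 to 139.6 and 145 CPM and Mybbp1a from 232 and 235 to 849 and 865 CPM. All 74 cytosolic ribosomal protein genes tested rose, also with library totals (median 0.78 and 0.52), Rpl3 from 1166 and 1189.9 to 2710.3 and 2725 CPM. Ribosomal protein genes have many near-identical copies, and their single values are uncertain. Of translation factors 34 of 41 rose and another 4 fell (median 0.70), the falls being Eif2b4, Eif4a1, Eif4a2 and Eif4ebp2. The rises included Eif1 from 278 and 274 to 930.5 and 948 CPM and Eif5 from 231 and 227 to 806 and 803 CPM, which act in start codon choice, and Eif2s2, a subunit of eIF2, from 148 and 154 to 424 and 413 CPM.

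Genes of cell division fell nearly throughout. Of 56 mitosis and cytokinesis genes, 55 fell and 1 rose, 48 of the falls over 2-fold, with a median of -1.99. The rise was in Cks1b, a small subunit of cyclin-dependent kinases. The proliferation marker Mki67 was at 484 and 490.1 CPM in fed and 83.1 and 87.1 CPM in starved libraries (-2.52 ± 0.037). Plk1, a mitotic kinase, went from 167 and 163 to 12.9 and 11.1 CPM (-3.78 ± 0.055), Ccnb1, cyclin B1, from 199 and 199.7 to 36.4 and 38.2 CPM (-2.42 ± 0.039), Kif14, a cytokinesis motor, from 44.2 and 43.7 to 3.84 and 3.42 CPM (-3.60 ± 0.11) and Nuf2, a kinetochore protein, from 103 and 105 to 11.3 and 11.7 CPM (-3.17 ± 0.055). Replication was less uniform: 32 of 48 fell and another 8 rose, with a median of -0.27. Tk1, thymidine kinase, fell from 149.7 and 155 to 25.5 and 26 CPM and Rrm2, of ribonucleotide reductase, from 428 and 425 to 103 and 103 CPM. Mcm6, of the replicative helicase, fell by 0.54 ± 0.038, but its partner Mcm2 rose from 193 and 193 to 302 and 300.3 CPM (0.64 ± 0.029), as did Ung, a uracil glycosylase of DNA repair, from 6.35 and 6.62 to 48.3 and 42.6 CPM (2.81 ± 0.09). Of 24 histone genes none rose and 21 fell (median -1.88), with Hist1h3c, Hist2h2aa1 and Hist3h2a not called, for example Hist1h1c from 76.97 and 76.2 to 2.11 and 1.15 CPM and Hist1h2bc from 44.5 and 44.3 to 1.17 and 1.70 CPM. Histone genes are similar copies, and most of their RNAs lack poly(A) tails. Of the 48 mitosis genes with a promoter 14 (29.2%) held the cell cycle homology region core TTTGAA, against 13.2% of tested genes and 16% of all promoters. This short motif is not particular to mitosis genes. Its share varied between lists, for example 0% in circadian clock genes, 26.3% in interferon-stimulated genes and 30% in amino acid transporters.

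The regulators of entry into the cycle fell among activators and inhibitors alike, 20 of 30 fell and another 8 rose. Ccnd1, cyclin D1, dropped from 150.5 and 146 to 31.3 and 29.3 CPM (-2.29 ± 0.045) and Ccne1, cyclin E1, from 51.6 and 54.5 to 16.2 and 16.1 CPM (-1.71 ± 0.063). CDK inhibitors dropped too, Cdkn2d from 44.1 and 43.2 to 3.44 and 3.21 CPM (-3.72 ± 0.094), Cdkn2c from 35.2 and 34.03 to 8.53 and 8.73 CPM (-2.004 ± 0.077) and Cdkn1b from 58.01 and 56.8 to 24.6 and 25.6 CPM (-1.19 ± 0.056). Cdkn1a (p21), the p53 target, was at 345 and 332 CPM in fed and 326 and 318 CPM in starved libraries (-0.07 ± 0.032, adjusted p = 0.047), a call lost on leaving out any one KO-labelled or fed WT library (-0.04 to -0.09). E2f1 rose from 55.8 and 60.9 to 129 and 122 CPM, Myc from 39.7 and 37.5 to 64.2 and 63.96 CPM and Ccnd2, cyclin D2, from 82.4 and 80.7 to 131 and 135 CPM, the last against a fall in WT (difference 2.13 ± 0.051).

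Interferon-stimulated genes, the effectors that cells switch on through STAT and IRF factors, were expressed in fed KO-labelled cells and fell with 1 exception. None of 47 rose and 46 fell, 43 of them over 2-fold, with a median of -2.65. The exception was Rsad2 (viperin), at 12.8 and 12.7 CPM in fed and 13.8 and 15.3 CPM in starved libraries (0.19 ± 0.1, adjusted p = 0.103). Oas3, a synthetase of the RNase L activator, went from 67.2 and 66.9 to 2.06 and 1.93 CPM (-5.07 ± 0.1) and Oas2 from 55.4 and 58.1 to 2.04 and 2.34 CPM (-4.69 ± 0.12). Ifit1 and Ifit3, which bind viral RNA, went from 122 and 130.3 to 9.49 and 8.47 CPM and from 109 and 110.4 to 8.67 and 9.73 CPM, and the GTPases Gbp3 and Irgm1 from 67.8 and 66.7 to 4.43 and 5.10 CPM and from 144 and 151 to 14.1 and 13.1 CPM. Isg15, the ubiquitin-like modifier, was at 198 and 201 CPM in fed and 55.4 and 54.2 CPM in starved libraries (-1.87 ± 0.045). Bst2 (tetherin) fell less, from 389 and 375 to 274 and 271 CPM (-0.49 ± 0.033), as did Ifitm3, from 715 and 723 to 365 and 370.2 CPM (-0.97 ± 0.028). Some of these genes have near-identical copies (the Oas1, Ifi200 and GTPase families), so their single values are uncertain. In WT cells Isg15 was read at 0.556 and 0.838 CPM fed and 0.798 and 0.606 CPM starved. In WT 29 of the 47 fell, 26 of them over 2-fold, and another 4 rose (median -1.44), against 44.8% of all genes lower in WT and 27.4% lower by more than 2-fold. The difference between responses was lower in 25 and higher in 4, against 30.4% and 34.1% of all genes.

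**Figure D4:**
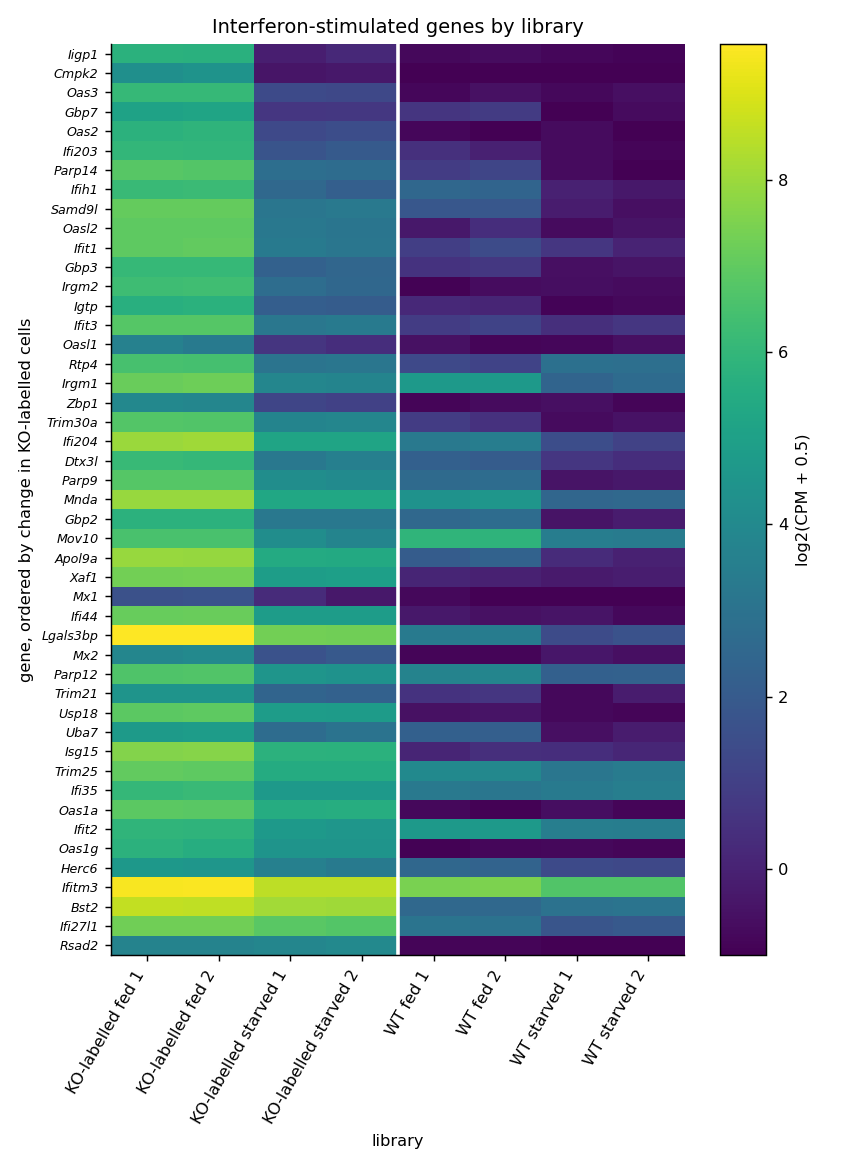
Heat map of log2(CPM + 0.5) for the 47 tested interferon-stimulated genes (rows, ordered by change in KO-labelled cells) in the 8 libraries (columns). The 2 fed KO-labelled libraries are brightest, the 2 starved ones are darker in every row but Rsad2, and most rows are near the floor in the 4 WT libraries.

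Signalling genes of the same pathway fell too. Stat2 went from 205 and 205 to 64.1 and 61.1 CPM (-1.71 ± 0.044), Irf9 from 92.3 and 93.9 to 30.9 and 30.6 CPM (-1.60 ± 0.055), Irf7 from 134 and 133 to 60.4 and 59.9 CPM (-1.15 ± 0.047) and Irf1 from 52.7 and 53 to 11.1 and 11.1 CPM (-2.25 ± 0.075). In the whole IRF, STAT and receptor list 11 of 18 fell and another 3 rose (median -0.88), the rises being the receptor chains Ifnar1 and Ifnar2 and the kinase Jak1. Of the nucleic acid sensors and adaptors 11 of 16 fell and another 3 rose, the rises being Mavs, Ticam1 and Tbk1, which relay the signal. The RNA sensors Ddx58 (RIG-I), Dhx58 (LGP2) and Ifih1 (MDA5) dropped from 152 and 157 to 32.7 and 31.9 CPM, from 40.3 and 38.1 to 2.22 and 2.76 CPM and from 72.2 and 73.6 to 5.39 and 4.12 CPM, the toll-like receptor Tlr3 from 26.04 and 22.5 to 3.57 and 2.97 CPM and the DNA sensing adaptor Tmem173 (STING) from 72.8 and 79.6 to 13.4 and 15.4 CPM.

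The stretches upstream of Isg15 and Oas3 are shown because they carry the core of the interferon-stimulated response element, GAAA, 2 bases, GAAA on either strand, in capitals. The stretch for Isg15 is chr4:156200850-156200921 (minus strand), where 3 matches overlap, and for Oas3 chr5:120777700-120777759 (minus strand), from RefSeq build GRCm38.p6.

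Isg15: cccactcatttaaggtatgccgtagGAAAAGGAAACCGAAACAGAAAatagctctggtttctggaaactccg

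Oas3: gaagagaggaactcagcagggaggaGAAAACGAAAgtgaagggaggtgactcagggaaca

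The matches ended 57 bases before the start site in Isg15 and 66 in Oas3. The core lay upstream of 18 of 38 matched interferon-stimulated genes (47.4%), against 3.14% of tested genes and 2.98% of all promoters. The element is named for such genes, so the share is a description of the list. Among genes that fell by more than 2-fold the core was present in 5.03%, and among those that rose by more than 2-fold in 2.21%. Most tested members of the list are among the genes that fell, so these shares are not separate from it. Of the 353 tested genes that hold the core, 165 fell and 130 rose, against 40.3% and 39.4% of all genes, with a median of -0.20. Among the interferon-stimulated genes that hold it were also Rsad2, which was not called, and Bst2 (-0.49).

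MHC class I presentation genes split by step: 13 of 16 fell and another 3 rose. Peptide supply fell, the transporters Tap1 and Tap2 from 112 and 105 to 54.1 and 52.7 CPM and from 112 and 107 to 45.6 and 42.9 CPM, their partner Tapbp (tapasin) from 396 and 372 to 145 and 138 CPM and the immunoproteasome subunit Psmb8 from 72.6 and 74.1 to 20.7 and 19.6 CPM (-1.87 ± 0.073). The 3 rises were the chains of the surface molecule: H2-D1 from 750.0 and 725 to 1158 and 1127 CPM (0.63 ± 0.033), H2-K1 from 457 and 473 to 646 and 635 CPM (0.46 ± 0.034) and B2m from 1278 and 1274 to 1792 and 1785 CPM (0.49 ± 0.027). H2 genes have close relatives, so reads may be split among them.

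Chemokines, cytokines and prostaglandin enzymes of fibroblasts fell more often than they rose. Of 30 genes 16 fell and another 8 rose, against 40.3% and 39.4% of all genes. The median of -0.69, or -0.51 with a gene at 0 counts set to its bound, lay within the middle 50% of all genes. Cxcl5, which attracts neutrophils, went from 259 and 256 to 9.44 and 9.26 CPM (-4.78 ± 0.039), Ccl2, which attracts monocytes, from 370.5 and 377 to 32.1 and 32.3 CPM (-3.53 ± 0.039), Ccl7 from 349 and 346 to 44.2 and 43.6 CPM (-2.99 ± 0.038) and Cxcl12, the stromal homing factor, from 117 and 115 to 8.73 and 8.75 CPM (-3.73 ± 0.042). Cxcl10, an interferon target, fell from 17.5 and 18.8 to 2.53 and 2.08 CPM (-2.98 ± 0.14).

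Most collagen genes fell. Of collagen chains 14 of 20 fell and another 5 rose (median -0.83), the rises being Col4a1, Col4a2, Col5a3, Col7a1 and Col18a1. Col1a1 went from 1713 and 1678 to 698 and 688 CPM (-1.29 ± 0.028), Col1a2 from 267 and 261 to 36.2 and 36.4 CPM (-2.86 ± 0.035) and Col3a1 from 914 and 905 to 148 and 143 CPM (-2.64 ± 0.034). The Col1a1 fall was smaller than in WT by 2.94 ± 0.04, whereas Col8a1, a network-forming chain, fell from 188 and 188 to 46 and 42.4 CPM and rose in WT (difference -2.59 ± 0.061). Among matrix glycoproteins and crosslinkers 22 of 40 fell and another 14 rose. Fn1, fibronectin, rose from 4017 and 4047 to 7781 and 7926 CPM (0.96 ± 0.038) while Thbs1, thrombospondin 1, fell from 645 and 638 to 182 and 178 CPM (-1.84 ± 0.03), Emilin1, of elastic fibres, from 243 and 232 to 76.99 and 71.01 CPM and Plod2, a collagen lysyl hydroxylase, from 168 and 172 to 58.9 and 57.3 CPM. Of matrix proteases and inhibitors 16 of 24 fell and another 8 rose, Mmp14, a membrane-bound collagenase, going from 319.6 and 313 to 89.2 and 90.8 CPM and Adamts5, an aggrecanase, from 78.9 and 75.4 to 16.1 and 15.97 CPM. Plaur, the urokinase receptor, rose from 45.1 and 44.1 to 189.7 and 179.5 CPM (2.05 ± 0.043).

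Smooth muscle contractile and YAP target genes rose more often than they fell, 18 of 24 rose and another 6 fell (median 0.57). Tagln (SM22) went from 40.7 and 41.5 to 405 and 414 CPM (3.32 ± 0.03), Acta2, smooth muscle actin, from 78.4 and 78.3 to 334 and 329.5 CPM (2.08 ± 0.026), Myl9, a myosin light chain, from 13.1 and 15.1 to 129.8 and 131 CPM (3.22 ± 0.049), Cnn1, calponin, from 1.65 and 1.43 to 11.02 and 11.5 CPM (2.86 ± 0.098) and Actg2, another smooth muscle actin, from 0.778 and 0.676 to 11.6 and 10.5 CPM (3.91 ± 0.12). WT cells held Acta2 at 2199 and 2192 CPM fed and 1787 and 1786 CPM starved, and the response differed by 2.38 ± 0.035 for Acta2 and 3.31 ± 0.063 for Myl9. Ctgf, a target of YAP and TGF-beta, rose from 84.1 and 85.8 to 172 and 170.4 CPM, less than in WT (difference -2.38 ± 0.046).

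Growth factors and their receptors mostly fell: 22 of 35 fell and another 8 rose, against 40.3% and 39.4% of all genes. Figf (VEGF-D) went from 87.4 and 89.4 to 8.73 and 6.10 CPM (-3.59 ± 0.089), Dkk3, a Wnt antagonist relative, from 11.9 and 13.7 to 1.04 and 1.64 CPM (-3.22 ± 0.13) and Pdgfra, the receptor that marks fibroblasts, from 97.1 and 97.8 to 23.7 and 24.8 CPM (-2.004 ± 0.055), but Vegfa rose from 70.1 and 72.5 to 208 and 211 CPM (1.56 ± 0.039). Among HIF factors and hypoxia markers 10 of 18 fell and another 6 rose, with a median of -0.26. In this list the difference from WT was lower in 14 of 18 and higher in 1, against 30.4% and 34.1% of all genes. Ndrg1, a stress and hypoxia gene, rose from 51.6 and 48.98 to 520.1 and 518 CPM, and Bnip3, a mitophagy receptor, fell from 129 and 130.4 to 72.4 and 73.3 CPM (-0.83 ± 0.039) while it rose in WT (difference -2.33 ± 0.062). The Vegfa rise was smaller than in WT (difference -1.46 ± 0.056).

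Chromatin and clock genes changed in single members rather than as lists. Among H3K9 demethylases, methyltransferases and HP1 genes 9 of 23 rose and another 8 fell, with a median of 0.07 that was -0.18 with library totals. Kdm4a, an H3K9 and H3K36 demethylase, rose from 93.6 and 90.7 to 145 and 144 CPM (0.64 ± 0.039), while Cbx5 and Cbx3, HP1 proteins that bind methylated H3K9, fell from 349.9 and 339 to 162 and 162 CPM and from 155 and 151 to 84.2 and 82.7 CPM, and the methyltransferase Suv39h1 fell by 0.72 ± 0.044. In the circadian clock 9 of 16 rose and another 6 fell (median 0.15, and -0.10 with library totals). Arntl (BMAL1) rose from 10.97 and 12.2 to 30.9 and 31.2 CPM and its inhibitor Cry1 from 7.94 and 7.28 to 36.8 and 34.9 CPM, whereas the output factor Dbp fell from 24.1 and 27.95 to 3.26 and 3.82 CPM and the inhibitor Per2 from 15.4 and 17.3 to 5.87 and 5.39 CPM. Nr1d1 (REV-ERBalpha) was at 66.5 and 68.3 CPM in fed and 72.5 and 72.6 CPM in starved libraries (0.11 ± 0.038, adjusted p = 0.0151, a call lost with DESeq2 or without either starved WT library, fed KO-labelled replicate 1 or starved KO-labelled replicate 2, and -0.15 with library totals) and differed from its WT response by -2.38 ± 0.054. Of Hox genes 16 of 36 fell and another 3 rose, against 40.3% and 39.4% of all genes. Past 2-fold were 15 falls and 3 rises, against 20.0% and 13.2% of all genes. Hoxa10 dropped from 59.5 and 59.1 to 8.96 and 9.26 CPM and Hoxd11 from 86.8 and 85.4 to 15.6 and 15.4 CPM, while Hoxb9 and Hoxc13 were among the rises.

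In WT cells 81.6% of genes were called, and 15.0% rose and 27.4% fell by more than 2-fold. Over all genes, 4063 rose and 4352 fell in both KO-labelled and WT cells, 1052 and 2025 of them by more than 2-fold in both. A further 776 rose in KO-labelled and fell in WT cells with a called difference, and 607 did the opposite. The difference was called higher for 4922 (34.1%) and lower for 4377 genes (30.4%), of which 2219 (15.4%) and 947 (6.57%) exceeded 2-fold. The marker genes Cd68 and Csf1r were among those that rose more in KO-labelled cells, by 2.73 ± 0.19 and 3.43 ± 0.53, and Slc7a3 by 3.07 ± 0.17. Atf3 rose less than in WT, where it went from 3.54 and 3.18 to 199 and 209 CPM (difference -2.81 ± 0.091). These differences between responses cannot be told apart from the sex of the cells.

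**Figure D5:**
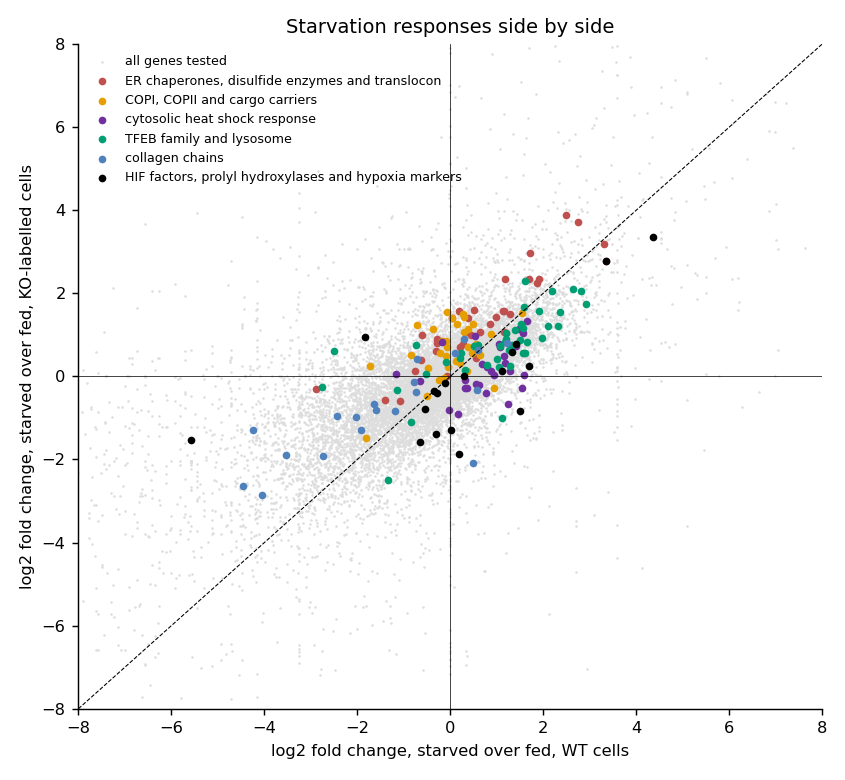
Log2 fold change of starved over fed in KO-labelled cells (vertical axis) against WT cells (horizontal axis) for all genes tested (grey) and 6 lists (colours), with the line of equality dashed. Axes end at 8 and leave out 72 genes. ER chaperone and COPI, COPII points lie mostly above the line, and heat shock and hypoxia points mostly below it.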

How the data were processed

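RNA-seq was read from 1 table of gene counts that the authors deposited as whole-number counts per transcript row, not normalized. TopHat2 2.0.9, bedtools and build mm9 are named per the submitters' processing notes. The counting tool, its use of strand and its treatment of reads matching several places: none is given in the sources used here. The 8 labelled columns were used, and 4 columns that match no label were not. Of 31055 rows, 1 per symbol was kept (that with the most counts summed over 8 libraries), which left 23366 symbols, 4447 of them with several rows.

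All 8 libraries were fitted with edgeR 4.0.16 (R 4.3.3, limma 3.58.1): filterByExpr, TMM scaling, 1 coefficient per group (4 residual degrees of freedom) and the quasi-likelihood test, with Benjamini-Hochberg adjustment over the 14418 genes tested. Standard errors were derived from the fold change and its F statistic. The common biological coefficient of variation was 0.0341. Differences between genotypes are the interaction contrast of the same fit. On simulated data of 14418 genes for the KO-labelled comparison, 88% of genes changed by 0.5 on the log2 scale and 100% of those changed by 1 were recovered. There, 50 genes were changed at each size and nearly all others were equal between groups. In the real libraries 79.7% of genes were called, so the simulation does not show recovery or scaling under such broad change.

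Genes were named by rank of change overall (at least 5 CPM on average) and within each list, and by rank of the difference between genotypes. The overall rank took only called genes whose fed and starved KO-labelled libraries did not overlap. Others, among them minority members of lists, were added after their values were seen. The members and gene lists were chosen with earlier results of these data known. Depth was 38407520 to 53602289 counts per library, and replicates of a group differed by more than counting noise (chi-square per degree of freedom 3.39 to 6.28). Alternatives were DESeq2 1.42.0, other scalings and filters, summed rows, KO-labelled libraries alone, the replicate number as a block and leaving out each library. Promoter motifs were searched in RefSeq sequence (GRCm38.p6), 250 bases upstream, since no mm9 sequence was used. Some genes are not reported here.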

Additional observations from a re-analysis of the deposited data

Results flagged for a closer look

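For the 4 genes below, the starvation response was called in opposite directions. It passed 2-fold in KO-labelled and 0.5 on the log2 scale in WT cells. The difference itself was tested by the interaction contrast of edgeR's quasi-likelihood fit. These genes were drawn only from those named by rank or from a fixed set, so they are no full list. Slc38a2 and Ssr1, described above, meet the same limits. Over all genes, 776 rose in KO-labelled and fell in WT cells with a called difference, and 607 did the opposite. Arrdc4, the glucose-responsive arrestin relative, fell by 1.53 in KO-labelled and rose by 1.72 in WT cells, a difference of -3.25 (adjusted p = 5.36e-10). Pfkfb3, which makes the activator of phosphofructokinase, fell by 1.67 and rose by 0.59, a difference of -2.26 (adjusted p = 3.61e-13). Rtp4, an interferon-inducible chaperone of receptors, went from 88.8 and 88.3 to 7.78 and 8.30 CPM in KO-labelled and from 1.99 and 1.68 to 6.94 and 6.72 CPM in WT cells, a difference of -5.35 (adjusted p = 1.91e-17). Kcnh2, a potassium channel subunit, went from 0.600 and 0.537 to 1.57 and 2.25 CPM in KO-labelled and from 31.8 and 30.1 to 2.46 and 3.91 CPM in WT cells, a difference of 5.03 (adjusted p = 6.6e-12). The fed levels of Arrdc4, Rtp4 and Kcnh2 lay far apart between the genotypes, and those of Pfkfb3 close together. The part of the sex of the cells in these differences cannot be told apart from genotype.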

How the results depend on the processing

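Under 16 alternatives, 6016 of 6061 values for 379 named genes kept direction and side of the threshold, and 365 genes did so under every alternative that gave a value. Of 810 values for 54 differences between genotypes, 808 did. Calls lost were those of Iigp1 (-4.83, adjusted p = 0.065) and Oas2 (-0.94, adjusted p = 0.846) without WT starved replicate 1. The counts of genes higher and lower (5678 and 5812) were 5517 and 5984 with RLE size factors, 4261 and 7242 with library totals, 5241 and 5646 with DESeq2, 5710 and 5857 without a filter, and 4578 and 5081 with at least 5 CPM in 2 libraries. They were 5662 and 5727 with rows summed and 5796 and 5861 with KO-labelled libraries only. Leaving out 1 library at a time gave 5359 to 5752 and 5317 to 6297. At 5 CPM, 1148 genes in place of 1897 rose by more than 2-fold, with fewer genes tested. Library totals turned 171 calls. Among named genes they gave -0.216 for Hspa8, -0.148 for Map1lc3b and -0.149 for Nr1d1, each above 0 otherwise, except Hspa8 at 5 CPM (-0.061). The cause was not tested. Same-numbered replicates did not visibly deviate together (correlations -0.0189 to 0.0141). This cannot tell whether they shared a culture or batch, which the labels do not say. With the replicate block 5614 genes rose and 5730 fell. Depth limits genes near 3 counts, such as Dio3 and Fgf21, to ratios or bounds.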

Other observations

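Further lists changed in some of their members in KO-labelled cells. Among immediate-early genes 16 of 26 rose and another 7 fell, 10 and 5 of them past 2-fold, with a median of 0.46. Among FoxO factors, sirtuins and catabolic regulators 10 of 18 rose and another 3 fell, the falls being Foxo1, Foxo4 and Sirt3, with a median of 0.39. Growth arrest and p53 target genes divided evenly, since 15 of 30 rose and another 14 fell, with a median of -0.04. In the BCL2 family 9 of 14 fell and another 3 rose, the rises being Bcl2l1, which protects from cell death, Bok and Bid. For the pentose phosphate and glycogen list 7 of 23 rose and another 8 fell, with a median of 0.05 that was -0.21 with library totals.

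Genes of the largest differences between genotypes were, on the higher side, Ddit4l, Apobec3, Kcnh2, Zmat1, Jrk, Sspo, Avil and Hey2, and on the lower side Oas2, Rtp4, Iigp1, Oas3, Gata4, Irgm2, Fibin and Kdr. Oas2 and Iigp1 lost that call without WT starved replicate 1 (differences of -0.94, adjusted p = 0.846, and -4.83, adjusted p = 0.065). Apobec3, a cytidine deaminase that restricts retroviruses, went from 37.8 and 40.2 to 9.62 and 9.33 CPM in KO-labelled and from 0.440 and 0.383 to 0 and 0 CPM in WT cells. Ddit4l, a relative of the mTORC1 inhibitor REDD1, was read at 8.36 and 10.3 CPM fed and 6.43 and 7.45 CPM starved in KO-labelled cells. No call is stated here for that change alone. In WT cells Ddit4l went from 17.7 and 15.1 to 0.246 and 0.121 CPM. Gata4, a developmental transcription factor, went from 13.5 and 13.3 to 41.1 and 40.4 CPM in KO-labelled and from 0 and 0 to 0.184 and 0.212 CPM in WT cells. Several rest on levels at or near 0 in WT cells, where the fitted difference is no bound.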
